A study of Mus musculus with 6 samples.

Results

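The sites at which fulvestrant (ICI in the labels and below) and tamoxifen placed estrogen receptor alpha (ERα) in the wild-type mouse uterus were compared from the peak lists of a pair of ChIP-seq libraries. ChIP-seq recovers DNA bound by a protein with an antibody and sequences it, and a peak is a stretch called as bound. The ICI list held 26482 peaks and the tamoxifen list 37327, which is 63809 of the 154923 peaks in the 6 lists of the series. Peaks that had 1 bp or more in common with a peak from the second list were classed as shared, and all others as ICI only or tamoxifen only.

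Both groups were ovariectomized wild-type C57BL/6J females, 12 weeks old, littermates of mice with an ERα AF-2 mutation (AF2ERKI). One group received 2 mg/kg fulvestrant and the other 2 mg/kg tamoxifen, each dissolved in DMSO and given intraperitoneally, and the uterus was taken after 1 h. Each list came from 1 library made from the pooled uteri of 6 mice, so there was no replicate and no difference between the ligands could be tested. Used for reference were the wild-type list after 50 µl DMSO (3712 peaks) and the AF-2 mutant lists after ICI (45837), tamoxifen (36538) and DMSO (5027), each also 1 library from 6 pooled uteri. All titles carry the code E1h, whose meaning the labels do not give. The whole uterus holds epithelium, stroma and muscle, and a peak list does not show which of these cells a site was bound in, nor can the tissue be checked against marker genes in such a list.

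ERα is a nuclear receptor that binds DNA at estrogen response elements or through other DNA-bound factors and recruits coregulators according to the ligand it carries. Activation function 2 (AF-2) is the coactivator groove of its ligand-binding domain, whose formation the bulky side chains of both compounds hinder. Fulvestrant is a steroid, an estradiol derivative with a long alkyl side chain, and is a full antagonist that also lowers the amount of receptor protein. Tamoxifen is a nonsteroidal triphenylethylene with a basic side chain and a partial agonist in the uterus, where it stimulates growth. Ovariectomy removes the main source of estradiol, so that the vehicle lists describe receptor with little hormone.

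The ligands shared most of the ICI sites and about as many tamoxifen sites as they did not share. Of the ICI peaks, 19104 were shared (72.1%, exact 95% interval 71.6 to 72.7) and 7378 were ICI only (27.9%, 27.3 to 28.4). Of the tamoxifen peaks, 19105 were shared (51.2%, 50.7 to 51.7) and 18222 were tamoxifen only (48.8%, 48.3 to 49.3). These intervals, and those on shares of peaks below, cover counting error only. Joined where they overlapped, the peaks formed 44704 regions, of which 42.7% were shared, 16.5% ICI only and 40.8% tamoxifen only. The tamoxifen list was the longer one, and the number of peaks a list holds also depends on the depth of its library and the calling threshold, neither of which is given in the sources used here. A peak missing from a list is therefore not a site shown to be unbound.

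Where a site was shared, the midpoints of the lists mostly lay within 50 bp of each other. The rule of 1 bp or more in common itself limits this offset, which was at most 199 bp. The midpoints of overlapping peaks lay a median of 17.0 bp apart (quartiles 8.00 and 32.0 bp), in peaks that were all 200 bp wide. The offset was at most 10 bp for 33.9% of the shared peaks, at most 50 bp for 87.9% and at most 100 bp for 97.2% of those of the ICI list. The first shared site along chromosome 1, in mm9 as all coordinates here, was called at chr1:3350012-3350211 with ICI and at chr1:3349955-3350154 with tamoxifen. It was also called with both ligands in the AF-2 mutant and with vehicle in neither genotype. The first ICI only peak, chr1:3194177-3194376, and the first tamoxifen only peak, chr1:3351072-3351271, were called in no other list.

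By an overlap of 1 bp or more, the other 4 lists, which had no part in setting the classes, held the shared sites most often, and the mutant ligand lists and the wild-type vehicle list held the ICI only sites least often. The mutant ICI list held 87.2% of the shared tamoxifen-list peaks (86.7 to 87.7), 61.3% of the tamoxifen only peaks (60.6 to 62.1) and 35.6% of the ICI only peaks (34.6 to 36.8). The order was the same in the mutant tamoxifen list, at 81.2% (80.6 to 81.7), 46.1% (45.4 to 46.8) and 28.8% (27.8 to 29.9). A mutant list made with ICI thus held a larger share of the wild-type sites called with tamoxifen alone than of those called with ICI alone. The intervals of these shares do not overlap, but each share rests on 1 library per group.

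The vehicle lists held few of the sites of any class. The wild-type vehicle list held 12.5% of the shared peaks (12.0 to 12.9), 3.01% of the tamoxifen only peaks (2.77 to 3.27) and 1.71% of the ICI only peaks (1.42 to 2.03). In the mutant vehicle list the shares were 7.09% (6.73 to 7.46), 4.69% (4.39 to 5.01) and 4.66% (4.19 to 5.17), and there the intervals of the single-ligand classes overlap. Both single-ligand classes had a higher share in the mutant vehicle list, which is longer, than in the wild-type one, and the shared peaks a lower one. These shares depend on what counts as the same site. With midpoints within 1 kb in place of an overlap, wild-type vehicle held 14.0% of shared, 4.33% of tamoxifen only and 4.31% of ICI only peaks, and mutant vehicle 9.22%, 6.07% and 9.39%, so that shared peaks were then not the highest there. Read from the other side, 64.1% of the 3712 wild-type vehicle peaks lay at a site called with both ligands (62.5 to 65.6), 14.9% at a site called with tamoxifen alone (13.7 to 16.1) and 3.31% at a site called with ICI alone (2.76 to 3.94). The remaining 659, or 17.8%, met no wild-type ligand peak.

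**Figure D1:**
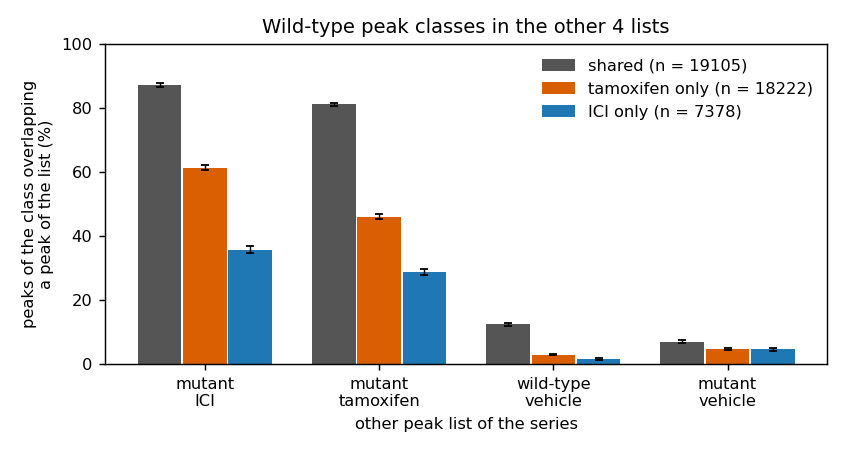
Share of wild-type shared, tamoxifen only and ICI only peaks (y axis, %) that overlap a peak of each of the other 4 lists by at least 1 bp (x axis). Bars are shares and error bars exact 95% binomial intervals. Shared peaks, counted in the tamoxifen list, are highest in all 4 lists by this overlap, and ICI only peaks are below tamoxifen only peaks in 3, with the mutant vehicle shares level at 4.66% and 4.69%.

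The single-ligand classes also differed in which mutant lists held them. Of the ICI only peaks, 21.9% were called in the mutant with both ligands (21.0 to 22.9), 13.7% with ICI but not tamoxifen (12.9 to 14.5), 6.89% with tamoxifen but not ICI (6.32 to 7.49) and 57.5% with neither (56.3 to 58.6). The tamoxifen only peaks divided into 42.1% with both (41.4 to 42.8), 19.3% with mutant ICI alone (18.7 to 19.9), 4.04% with mutant tamoxifen alone (3.76 to 4.34) and 34.6% with neither (33.9 to 35.3). Among the shared peaks of the tamoxifen list, 78.8% were in both mutant lists (78.2 to 79.4) and 10.4% in neither (9.99 to 10.9).

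Sites that only 1 mutant ligand list held were mostly in its ICI list, whatever their wild-type class. That list was the ICI list for 82.7% of 4250 tamoxifen only peaks (81.5 to 83.8), for 77.9% of 2060 shared peaks (76.0 to 79.6) and for 66.6% of 1519 ICI only peaks (64.1 to 68.9). Over all 19834 mutant ligand peaks without an overlap in the second mutant ligand list, 73.4% were of the ICI list (72.8 to 74.1). The tamoxifen only and shared values lie above this and the ICI only value below it. In no other list of the series were 4091 ICI only peaks (55.4%, 54.3 to 56.6), 6153 tamoxifen only peaks (33.8%, 33.1 to 34.5) and 1857 shared tamoxifen-list peaks (9.72%, 9.30 to 10.1).

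Along the chromosomes the classes were placed much alike. Shared sites were densest on chromosome 11, at 10.7 per Mb, and least dense among the autosomes on chromosome 3, at 5.66 per Mb. Tamoxifen only sites had the same extremes, 9.21 per Mb on chromosome 11 and 5.55 on chromosome 3, whereas ICI only sites ran from 2.33 per Mb on chromosome 14 to 3.67 on chromosome 11. Chromosome length was taken here as the end of the last peak in any list. The tamoxifen only share of tamoxifen peaks stayed between 46.3% (chromosome 11) and 51.0% (chromosome 18) on the autosomes, and the ICI only share of ICI peaks between 25.5% (chromosome 11) and 29.8% (chromosome 10). The number of ICI peaks per tamoxifen peak ran from 0.677 on chromosome 9 to 0.731 on chromosome 10 among the autosomes and was 0.750 on the X chromosome.

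The last 25% of each chromosome's length, counted from its start in the assembly, held 32.5% of the shared tamoxifen-list peaks (31.8 to 33.1), 32.9% of the tamoxifen only peaks (32.2 to 33.5) and 31.4% of the ICI only peaks (30.4 to 32.5). The first 25% held 18.4%, 18.3% and 18.7% in the same order. In the part just before the last, the ICI only share, 26.5% (25.5 to 27.5), was slightly above the 24.8% of shared peaks (24.2 to 25.4) and the 24.7% of tamoxifen only peaks (24.0 to 25.3). Outside chromosomes 1 to 19 and X lay 9 shared, 9 tamoxifen only and 4 ICI only peaks.

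The X chromosome was sparse in all classes and had the highest ICI only share of ICI peaks. Per Mb it held 2.04 shared, 1.16 ICI only and 2.23 tamoxifen only peaks. On the autosomes these densities were 7.60, 2.91 and 7.23. There 193 of 533 ICI peaks were ICI only, or 36.2% (32.1 to 40.5), against 27.7% of 25936 autosomal ICI peaks (27.1 to 28.2). For tamoxifen, 371 of 711 X peaks were tamoxifen only, 52.2% (48.4 to 55.9), against 48.8% on the autosomes (48.2 to 49.3). The X chromosome held 2.62% of all ICI only peaks (2.26 to 3.01), 2.04% of tamoxifen only peaks (1.84 to 2.25) and 1.78% of shared peaks (1.60 to 1.98).

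The single-ligand shares also differed with site density. Peaks were grouped by the number of mutant ligand peaks, ICI and tamoxifen together, in their 100 kb window, leaving out mutant peaks that overlapped the peak itself, a grouping chosen after values of the classes were seen. Of the ICI peaks, 30.3% of 2458 with 0 other mutant peaks were ICI only (28.5 to 32.1), 31.6% of 7571 with 1 to 4 (30.5 to 32.7), 28.5% of 7996 with 5 to 9 (27.6 to 29.5), and 311 of 1633 with 20 or more (17.2 to 21.0%). The tamoxifen only share was 54.7% of 3786 with 0 (53.1 to 56.3) and 45.5% of 2427 with 20 or more (43.5 to 47.5).

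On the X chromosome the ICI only share was 36.5% of 96 ICI peaks with 0 other mutant peaks (26.9 to 46.9), 36.1% of 219 with 1 to 4 (29.7 to 42.8), 41.0% of 139 with 5 to 9 (32.7 to 49.7) and 27.8% of 79 with 10 or more (18.3 to 39.1). On the autosomes the groups had 707 of 2358 ICI peaks (28.1 to 31.9%), 31.5% (30.4 to 32.5), 28.3% (27.3 to 29.3) and 23.1% (22.2 to 24.1). The X value was the higher one in all 4 groups, and the intervals overlap in all but that of 5 to 9. The last group spans a range of densities, and the part of density in the X value was not tested.

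**Figure D2:**
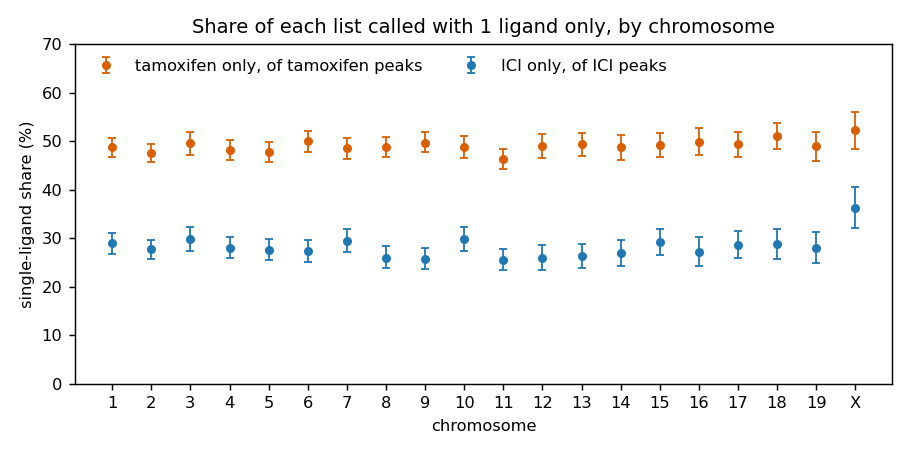
Share of tamoxifen peaks that were tamoxifen only and of ICI peaks that were ICI only (y axis, %) on each chromosome (x axis), with exact 95% binomial intervals as error bars. The autosomes stay within 46.3% to 51.0% and 25.5% to 29.8%, and the X chromosome has the highest ICI only share, 36.2%.

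Single-ligand sites seldom lay within 1 kb of a shared site, about as seldom as shared sites lay within 1 kb of each other. The midpoint of an ICI only peak was a median of 25745 bp from the nearest shared peak of its list (quartiles 8444 and 65391), and that of a tamoxifen only peak 21194 bp (6398 and 58112). A shared peak of the ICI list had its nearest shared neighbour at a median of 17391 bp (5961 and 49066), so that single-ligand peaks were somewhat farther from shared peaks than these were from each other. Within 1 kb of a shared peak of the same list lay 6.74% of ICI only and 7.54% of tamoxifen only peaks, within 10 kb 28.5% and 33.6%, and within 100 kb 84.4% and 85.8%. Shared peaks had a shared neighbour within 1 kb in 7.07% of cases and within 10 kb in 36.2%.

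The nearest peak of the other ligand was closer for ICI only than for tamoxifen only sites. The median distance was 10988 bp from an ICI only peak to any tamoxifen peak (2680 and 31022) and 14060 bp from a tamoxifen only peak to any ICI peak (4014 and 40560). The tamoxifen list, the target of the first distance, is the denser one, and the part of this in the difference was not tested. Peaks over 100 kb from any peak of the other ligand numbered 413 of the ICI only class (5.60%, 5.08 to 6.15) and 1645 of the tamoxifen only class (9.03%, 8.62 to 9.45).

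Near misses made up a small part of each class. A peak of the other list lay within 1 kb, without overlap, for 1167 ICI only peaks (15.8%, 15.0 to 16.7) and 2061 tamoxifen only peaks (11.3%, 10.9 to 11.8). For 716 of these ICI only peaks (61.4%, 58.5 to 64.2) the nearest such neighbour was itself a tamoxifen only peak, so that neither list held both. For the tamoxifen only peaks the neighbour was an ICI only peak in 727 cases (35.3%, 33.2 to 37.4) and a shared peak in the others. Over the whole lists, 48.8% of tamoxifen peaks were tamoxifen only and 27.9% of ICI peaks were ICI only. Peaks of the same list were seldom close. Only 1.53% of ICI only and 2.74% of tamoxifen only peaks had a shared peak of their list within 500 bp. The part of this spacing in the neighbour shares was not tested.

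**Figure D3:**
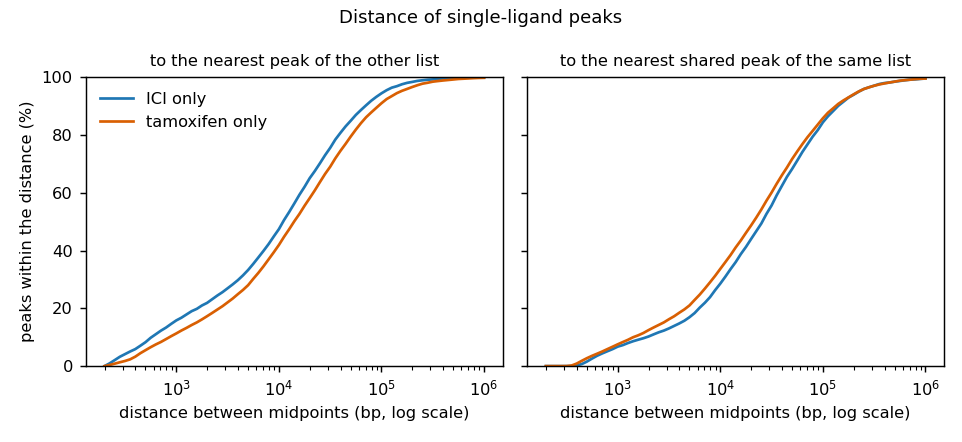
Cumulative share (y axis, %) of ICI only and tamoxifen only peaks whose midpoint lies within a given distance (x axis, bp, log scale) of the nearest peak of the other list (left) and of the nearest shared peak of the same list (right). ICI only peaks are nearer to the other list, with medians of 10988 and 14060 bp, and slightly farther from shared peaks, with medians of 25745 and 21194 bp.

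Tamoxifen only peaks were less often present in the mutant ligand lists the farther they lay from an ICI peak. Of those within 1 kb of an ICI peak, the mutant ICI list held 69.3% (67.2 to 71.3) and the mutant tamoxifen list 57.5% (55.3 to 59.6). Of those over 100 kb away, the shares were 50.2% (47.7 to 52.6) and 34.8% (32.5 to 37.2). The part of site density in this slope was not tested. ICI only peaks had no such slope. The mutant ICI list held 31.0% of those within 1 kb of a tamoxifen peak (28.4 to 33.8), 41.1% of those at 1 to 10 kb (39.1 to 43.1) and 32.4% of those over 100 kb away (27.9 to 37.2).

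Of the 4 most isolated single-ligand sites, 2 of each class, 3 were on the X chromosome, where peaks of all classes were sparse. The ICI only peak farthest from any tamoxifen peak, at 1793783 bp, was chrX:86536973-86537172, which was also called with ICI in the mutant. The next, chrX:42143079-42143278, lay 1455763 bp from a tamoxifen peak and was called with both ligands in the mutant. The tamoxifen only peak farthest from any ICI peak, at 4833945 bp, was chrUn_random:5102074-5102273. That entry of the assembly joins unplaced pieces, so this is not a distance along a chromosome. The next was chrX:61412782-61412981, at 3611675 bp. Both were called in no other list. Among all single-ligand peaks over 100 kb from the other ligand, the order was the reverse. Another list of the series held 54.7% of such tamoxifen only peaks (52.3 to 57.1) and 42.9% of such ICI only peaks (38.0 to 47.8).

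Neighbouring sites were mixed with respect to class. Going along the chromosomes over all 44704 regions, an ICI only region was followed by another ICI only region in 19.6% of cases (18.7 to 20.6), against the 16.5% that such regions make up of all. A tamoxifen only region was followed by another in 40.1% (39.4 to 40.8), where such regions make up 40.8%, and a shared region by a shared one in 43.6% (42.9 to 44.3), where they make up 42.7%. ICI only regions thus followed each other slightly more often than their share, and the other classes stayed within 1 percentage point of theirs.

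In windows of 100 kb, laid end to end from each chromosome's start, the ligands mostly differed by few peaks. A peak of either list was present in 14447 windows. Of these, 8125 had more tamoxifen peaks (56.2%), 2471 more ICI peaks (17.1%) and 3851 equal numbers (26.7%), and in 10587 (73.3%) the numbers differed by at most 1. The counts of ICI and tamoxifen peaks per window had a Pearson r of 0.76 and a Spearman rho of 0.66 over these windows, which share the same pair of libraries, and this is a description only. Tamoxifen peaks without any ICI peak were found in 2869 windows and ICI peaks without any tamoxifen peak in 981. Such windows held 1 peak in 2130 and 835 cases, and at most 8 tamoxifen or 4 ICI peaks.

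A window was said to favour a ligand when both lists together had at least 5 peaks there and that ligand had at least 2 times the peaks of the other. Of 5224 windows with 5 or more peaks, 1270 (24.3%) favoured tamoxifen and 151 (2.89%) favoured ICI. The difference in list length enters these counts directly. With each count divided by its list's length before the same rule, 410 windows (7.85%) favoured tamoxifen and 527 (10.1%) favoured ICI, so the direction of the excess rests on the scaling. Tamoxifen-favouring windows made up between 16.7% of tested windows on the X chromosome and 29.1% on chromosome 12. ICI-favouring windows made up between 1.01% on chromosome 12 and 5.13% on the X chromosome, where 4 of 78 windows did so.

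**Figure D4:**
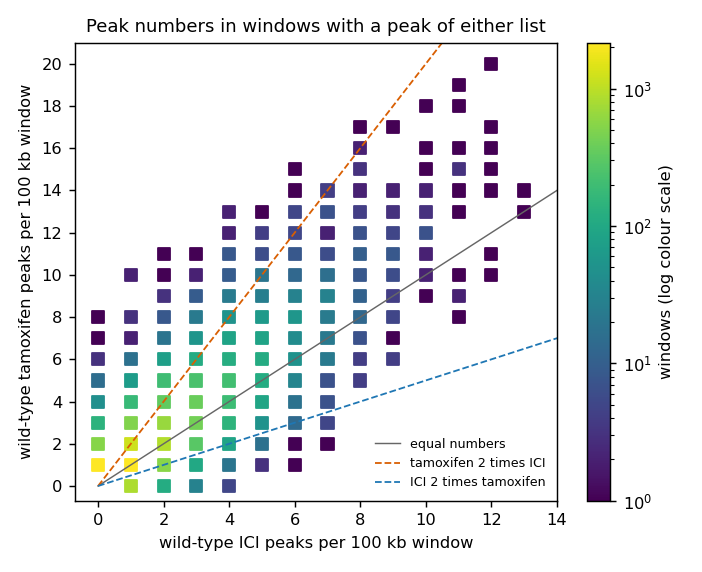
Number of wild-type tamoxifen peaks (y axis) against wild-type ICI peaks (x axis) in 100 kb windows with a peak of either list. Each square is a pair of counts and its colour the number of windows on a log scale, with lines for equal numbers and for 2 times the other ligand. More windows lie above the line of equal numbers (8125) than below it (2471).

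Summed over windows, the mutant ratio of ICI to tamoxifen peaks was much alike in both sets. The share of windows with more mutant ICI than mutant tamoxifen peaks differed between them. The 1270 tamoxifen-favouring windows held 7095 wild-type tamoxifen and 2802 wild-type ICI peaks, a ratio of ICI to tamoxifen of 0.395. They held 5512 mutant tamoxifen and 6961 mutant ICI peaks, a ratio of 1.26. The 151 ICI-favouring windows held 674 wild-type ICI and 297 wild-type tamoxifen peaks, a ratio of 2.27, and 625 mutant ICI and 511 mutant tamoxifen peaks, a ratio of 1.22. Over all 5224 windows the mutant ratio was 1.22. Mutant ICI exceeded mutant tamoxifen in 65.6% of tamoxifen-favouring windows, in 51.0% of ICI-favouring windows and in 59.9% of all tested windows. The mutant counts were equal in 24.1%, 32.5% and 27.9% in the same order. Tamoxifen-favouring windows held means of 5.48 mutant ICI and 4.34 mutant tamoxifen peaks, and ICI-favouring windows 4.14 and 3.38. The part of these lower numbers in the difference was not tested.

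The same rule was applied to the mutant lists in the 4584 windows that also had 5 mutant ligand peaks or more. There 494 windows (10.8%) favoured ICI and 25 (0.545%) favoured tamoxifen in the mutant. Of 1114 such windows that favoured tamoxifen in the wild type, 153 (13.7%) favoured ICI and 4 (0.359%) tamoxifen in the mutant. Of 120 that favoured ICI in the wild type, 19 (15.8%) favoured ICI and 1 (0.833%) tamoxifen. The share of windows that favoured tamoxifen in the mutant was thus near its background in both sets. The share that favoured ICI, 13.7% and 15.8%, was numerically above the background of 10.8%. The second value rests on 19 of 120 windows, and neither difference was tested.

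A wild-type vehicle peak was present in 26.5% of ICI-favouring, 32.6% of tamoxifen-favouring and 37.2% of the other tested windows. The mean number of shared peaks per window rose in the same order, from 1.56 to 1.96 and 2.99. Its part in the vehicle shares was not tested.

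At most 9 peaks separated the ligands in favour of tamoxifen, in 7 windows, of which the 5 with the fewest ICI peaks are described. In chr18:79200001-79300000, wild-type tamoxifen had 10 peaks and ICI 1, and the mutant had 14 with ICI, 11 with tamoxifen and 0 with vehicle. The 1 shared site there was chr18:79231285-79231484. All 9 tamoxifen only sites were mutant ICI sites and 8 were mutant tamoxifen sites, among them a row of 6 between 79272366 and 79283087. Over all tamoxifen only peaks, the mutant ICI list held 61.3% and the mutant tamoxifen list 46.1%. The window is therefore one where only the wild-type ICI list was nearly empty among the ligand lists.

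The windows on chromosome 7 differed from each other, although their starts are less than 500 kb apart. In chr7:141300001-141400000, wild-type tamoxifen had 10 peaks and ICI 1, and the mutant 9 with ICI and 5 with tamoxifen. Of its 9 tamoxifen only sites, 7 were mutant ICI sites and 2 mutant tamoxifen sites. In chr7:140900001-141000000, wild-type tamoxifen had 13 peaks and ICI 4, and the mutant 4 with ICI and 2 with tamoxifen. None of the 4 shared sites there, from chr7:140922177-140922376 to chr7:140976755-140976954, was called in the mutant, and 3 of its 9 tamoxifen only sites were. The mutant thus called few of the wild-type sites in that window, whether these were shared or not. Over the whole classes, a mutant ligand list held 89.6% of the shared tamoxifen-list peaks and 65.4% of the tamoxifen only peaks.

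The remaining pair were chr1:186900001-187000000 and chr14:26200001-26300000. The chromosome 1 window had 11 tamoxifen and 2 ICI peaks in wild-type mice, 4 and 8 in mutants, and the mutant lists held 6 of its 9 tamoxifen only sites. The chromosome 14 window had 13 and 4 peaks in wild-type mice, 13 with each ligand in mutants, which held 8 of its 9 tamoxifen only sites. Of all tamoxifen only peaks, 65.4% were in at least 1 mutant ligand list. In these 5 windows neither wild-type ICI only nor wild-type vehicle peaks were called. They were picked for a large tamoxifen excess and few ICI peaks, which itself leaves little room for ICI only peaks. All tamoxifen-favouring windows held a mean of 0.251 ICI only peaks, and 32.6% of them had a wild-type vehicle peak.

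In raw counts, windows with an excess of ICI were fewer and their excess smaller, at most 5 peaks and that in 2 windows. The ICI list is the shorter one, and with counts divided by list length more windows favoured ICI (527) than tamoxifen (410). In chr17:28400001-28500000, wild-type ICI had 6 peaks and tamoxifen 1, and the mutant 3 with each. In chr10:60200001-60300000, wild-type ICI had 7 and tamoxifen 2, and the mutant 5 and 6. Of the 5 ICI only sites in each of these, 2 were called in another list, and of all ICI only peaks 44.6% were.

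A further 14 windows had 4 more ICI than tamoxifen peaks, and the first of these without tamoxifen peaks were on chromosomes 4, 11 and 18. In chr4:97400001-97500000 the 4 ICI only sites were chr4:97417940-97418139, chr4:97418473-97418672, chr4:97424259-97424458 and chr4:97445190-97445389. The last was also a mutant ICI site, and the others were called nowhere else. In chr11:65600001-65700000 the ICI only site chr11:65620785-65620984 was called in all lists of the series except wild-type tamoxifen. In chr18:50100001-50200000, 3 of 4 ICI only sites were called in another list. Across these 5 windows the mutant showed no common excess of either ligand, with 4 and 1, 1 and 2, and 2 and 2 ICI and tamoxifen peaks in the last 3.

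**Figure D5:**
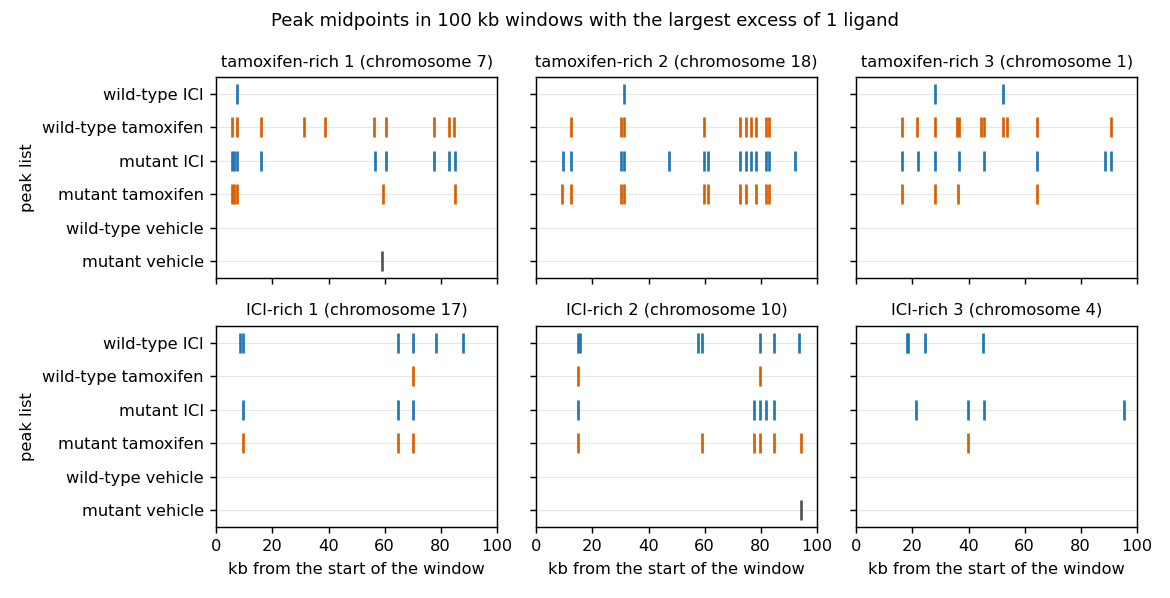
Midpoints of peaks (ticks) in the 6 lists (rows) along 6 windows of 100 kb (x axis, kb from the window's start): the 3 windows with the largest excess of wild-type tamoxifen and the fewest ICI peaks (top) and the 3 with the largest excess of ICI and the fewest tamoxifen peaks (bottom). In the tamoxifen-rich window of chromosome 18, all 9 tamoxifen only sites recur in the mutant ICI row, and in the ICI-rich window of chromosome 4, 1 of 4 ICI only sites does. Over the whole classes, 61.3% of tamoxifen only and 35.6% of ICI only peaks were mutant ICI sites.

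The most shared peaks were 12 each in chr18:36000001-36100000 (12 ICI and 16 tamoxifen peaks) and chr8:124600001-124700000 (12 and 17), then 11 in chr11:104400001-104500000 (11 and 15). None of these held an ICI only peak, while they held 4, 5 and 4 tamoxifen only peaks. The chromosome 11 window was picked from 4 with 11 shared peaks, ties going to fewer peaks of the other class. That rule itself favours a window without ICI only peaks. ICI only is also the smaller class, with 7378 peaks against 18222, and all tested windows held a mean of 0.805 of them. Whether windows rich in shared peaks lack ICI only peaks was not tested. The wild-type vehicle list had 1, 2 and 3 peaks in the named windows.

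Single-ligand sites of both kinds could also be dense in the same window. The most ICI only peaks, 7, were in chr1:122100001-122200000, with 4 tamoxifen only and 4 shared peaks, and the mutant lists held 5 of the 7. With 6 ICI only peaks, chr17:86700001-86800000 had 3 tamoxifen only and 3 shared peaks, and chr4:132600001-132700000 had 5 and 5. The most tamoxifen only peaks, 12, were in chr8:122800001-122900000, with 4 ICI only and 8 shared peaks, and the mutant lists held 7 of the 12. Then followed chr9:35100001-35200000 with 10 tamoxifen only, 1 ICI only and 7 shared peaks, and chr1:93700001-93800000 with 9, 0 and 6, where all 9 tamoxifen only sites were also mutant sites. Over the whole classes, a mutant ligand list held 42.5% of ICI only and 65.4% of tamoxifen only peaks. At least 1 single-ligand peak of each ligand was present in 3561 windows (24.6% of those with a peak).

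Favouring windows seldom formed longer stretches. Of the 1270 that favoured tamoxifen, 327 (25.7%) lay beside another, and of the 151 that favoured ICI, 9 (5.96%) did, which also reflects how many there were of each. The longest tamoxifen stretch was 5 windows, chr7:146800001-147300000, with 21 wild-type tamoxifen and 7 wild-type ICI peaks, and 15 mutant peaks with each ligand. All 7 ICI peaks there were shared, and the other 14 tamoxifen peaks were tamoxifen only. The longest ICI stretch was 3 windows, chr7:16500001-16800000, with 12 wild-type ICI and 6 wild-type tamoxifen peaks, and 8 mutant peaks with each ligand. These stretches were picked after their values were seen.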

How the data were processed

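ERα ChIP-seq peak lists of 6 libraries were used, 1 per combination of genotype and treatment. The build was mm9 and the tools, per the submitters' processing notes, included HOMER 4.10.3, Bowtie2 2.1.0, bedtools 2.24.0, Picard and SAMtools, with no roles given. The authors deposited positions only, in bp, and each peak is 200 bp wide. The sources used here give no depth, peak strength, caller settings or use of an input. Overlaps, midpoint distances and windows were computed in Python 3.11.15 with scipy 1.17.1, pandas 2.3.3 and numpy 2.4.6, and tested on simulated lists. Run on the same lists, bedtools 2.31.1 gave a different overlap count in 0 of 30 cases. Intervals are exact (Clopper-Pearson) at 95%. With 1 library per group, no test was made. Named windows were the 5 with the largest excess of each ligand, and the 3 with the most peaks of each class, ties going to fewer peaks of the other ligand or class and then to chromosome order. Named peaks were the 2 most isolated of each single-ligand class and the first of each class on chromosome 1. Classes and rules were chosen with earlier results of these data known. Planned placement by gene and motif needed mm9 annotation and sequence, not used here. Alternatives changed the overlap, chromosomes, window size and start, minimum, scaling and merging of peaks within 1 kb.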

Additional observations from a re-analysis of the deposited data

Results flagged for a closer look

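Per tamoxifen peak, ICI gave 0.709 peaks in the wild type and 1.25 in the AF-2 mutant, so that the shorter of the ligand lists was ICI in one genotype and tamoxifen in the other. Each number comes from 1 library, and the difference was not tested.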

How the results depend on the processing

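All class counts stayed within 1.5 times their values under every alternative run. Divided by list length, window counts turned the excess of tamoxifen- over ICI-favouring windows from 1119 to -117, with 410 favouring tamoxifen and 527 ICI. The lists' unequal length is what that scaling removes. With at least 10 peaks per window, 251 favoured tamoxifen and 5 ICI, an excess of 246, from 1403 windows tested in place of 5224. With 50 kb windows, 95 favoured ICI. Under an overlap of at least 100 bp, ICI only peaks were present at 33.0% in mutant ICI, 26.2% in mutant tamoxifen, 1.18% in wild-type vehicle and 3.25% in mutant vehicle, shared peaks at 86.0%, 80.2% and 6.11% in mutant ICI, tamoxifen and vehicle, and tamoxifen only peaks at 4.38% in mutant vehicle. With midpoints within 1 kb, the shares in mutant ICI, mutant tamoxifen, wild-type vehicle and mutant vehicle were 48.1%, 40.9%, 4.31% and 9.39% for ICI only, 65.2%, 50.7%, 4.33% and 6.07% for tamoxifen only, and 88.9%, 82.9%, 14.0% and 9.22% for shared peaks. Under this rule ICI only peaks were level with tamoxifen only peaks in wild-type vehicle and above both other classes in mutant vehicle, but were still below tamoxifen only peaks in both mutant ligand lists. With midpoints within 500 bp, the median distance of tamoxifen only peaks to a shared peak was 21887 bp and the median offset 18.0 bp. The other 39 values stayed within their limits. No paired analysis was possible because each group had 1 library, and for the same reason no replicate could be left out. The alternatives for gene placement and pathway genes were not run, as mm9 annotation was not used here. Depth is unknown.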
